A study of Mus musculus with 28 samples.

Results

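The Myc network genes comprised 6 members: Myc, Max, Mxd1, Mxd4, Mxi1 and Mnt. They were taken by name from the 21614 genes of the subset count table, the 20603 genes of the treatment count table and the 27933 genes of the single-cell table, and all 6 were present in each. The genes were chosen by name together with measured Myc levels, namely lower Myc in sorted effector-like cells relative to memory-like ones and under checkpoint blockade. Values in those comparisons are therefore a description, without a test. All members passed the filter on low counts in both bulk tables, although Mxd4 did so with 0 to 46 reads a library.

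CD8+ T cells infiltrating MC38-OVA tumours, grown from ovalbumin-expressing mouse colon carcinoma cells in C57BL/6 wild-type mice, were the source of RNA. One experiment sorted the PD-1- cells by subset into effector-like (CD62L-Slamf7hiCX3CR1+, n = 3), memory-like (CD62L-Slamf7hiCX3CR1-, n = 5) and naive-like (CD62LhiSlamf7-CX3CR1-, n = 6). A second, the treatment experiment, took Tim-3+PD-1+ (double positive, DP) and Tim-3-PD-1- (double negative, DN) cells 12 days after implantation from mice given anti-Tim-3 plus anti-PD-1 (blockade) or isotype antibodies, with n = 3 for each of DP blockade, DP isotype, DN blockade and DN isotype. One droplet library each was made from DN cells of blockade and of isotype mice. The labels of some effector-like libraries list several numbers, which may mark pools. All naive-like labels bear a date of their own, so date and subset cannot be told apart in comparisons with naive-like cells. Effector-like and memory-like labels share a date.

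Myc is a basic helix-loop-helix leucine zipper transcription factor that binds DNA as a dimer with Max, mostly at the E-box CACGTG, and favours ribosome production, nucleotide synthesis and glycolysis. The Mxd proteins (Mxd1, Mxd4 and Mxi1, also called Mxd2) and Mnt compete for Max and recruit Sin3 corepressors to the same sites. In T cells, Myc is induced by antigen receptor and cytokine signals and is required for the metabolic change that precedes division, whereas Mxd1 is known from cells that leave the cycle or differentiate.

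By GENCODE M21 (GRCm38), Myc lies at chr15:61985391-61990374 on the plus strand and Mnt at chr11:74830920-74845725 on the plus strand, and no other annotated gene overlaps them. Max (chr12:76937269-76962201, minus strand) and Mxd1 (chr6:86647042-86669161, minus strand) each overlap 1 unconfirmed model on their own strand. Mxd4 (chr5:34173883-34187720, minus strand) overlaps an antisense gene, and Mxi1 (chr19:53310518-53375810, plus strand) overlaps 2 genes on the other strand. The sources used here state no strand for the bulk counting, so Mxd4 and Mxi1 values may include reads of those neighbours.

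The network's own binding letters were looked for in RefSeq promoters (GRCm38.p6, 250 bases before to 50 after the start), which matched 5 of the 6 members; Myc had no entry. CACGTG, which reads the same on both strands, occurred in 3 of these 5 promoters and in 2349 of all 32851 promoters (7.15%). Those of Max, Mnt and Mxd4 are shown from 250 bases before to 10 after the start, 5′ to 3′ on the gene's strand, because they hold the letters that the network's dimers bind, printed in capitals.
Max, chr12:76962239-76962498, minus strand: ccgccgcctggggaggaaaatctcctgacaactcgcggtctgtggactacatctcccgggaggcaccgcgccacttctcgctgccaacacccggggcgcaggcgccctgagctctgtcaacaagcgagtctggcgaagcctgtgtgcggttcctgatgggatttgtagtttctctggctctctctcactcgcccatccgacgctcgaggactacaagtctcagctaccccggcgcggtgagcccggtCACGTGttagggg
Mnt, chr11:74830674-74830933, plus strand: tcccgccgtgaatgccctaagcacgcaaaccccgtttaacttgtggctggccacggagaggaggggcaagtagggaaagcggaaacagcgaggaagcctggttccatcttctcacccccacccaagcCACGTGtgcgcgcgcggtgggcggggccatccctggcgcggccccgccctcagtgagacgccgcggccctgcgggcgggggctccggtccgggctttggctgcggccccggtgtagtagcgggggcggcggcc
Mxd4, chr5:34187701-34187960, minus strand: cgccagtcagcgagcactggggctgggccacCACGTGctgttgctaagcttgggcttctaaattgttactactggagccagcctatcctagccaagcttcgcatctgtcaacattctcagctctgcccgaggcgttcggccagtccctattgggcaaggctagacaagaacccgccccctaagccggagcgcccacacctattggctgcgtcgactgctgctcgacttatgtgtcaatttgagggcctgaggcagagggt
The first base of the E-box was at −3 in Max, −123 in Mnt and −219 in Mxd4, counted from the start site. Neither Mxd1 nor Mxi1 had the letters in this window. A match describes the letters and is not a measured binding site.

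Bulk libraries held 5027112 to 7978200 expected counts in the subset and 8005818 to 13579262 in the treatment experiment, and levels below are CPM, counts scaled to library size after a correction for composition within each table. The tables were scaled separately, so levels were compared only within one. All 7 core T cell markers were detected in every library, with a summed level of 2964 to 5099 CPM. Summed red cell genes, 6 in the list, were at 0.47 to 14.2 CPM in DP blockade and 0.253 to 118 CPM in DN blockade libraries, against 1404 to 3286 CPM in DP isotype and 2709 to 5312 CPM in DN isotype libraries, so they moved with treatment. Their part in the treatment results was not tested. In bulk samples, fewer cells of a type and less RNA per cell cannot be told apart. The labels do not say that replicates are separate animals, so p-values measure the spread between these libraries. DP and DN libraries share numbers in their names, and the main tests took no pairing by these into account.

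Myc, the activator, was at 43.9, 28.4 and 37.1 CPM in the 3 effector-like libraries, against 211, 205, 217, 287 and 162 CPM in the 5 memory-like libraries. In the 6 naive-like libraries it ranged from 173 to 236 CPM with a median of 182 CPM. Every effector-like library lay below every memory-like and naive-like library, as for 5.26% and 6.55% of the genes tested, while memory-like and naive-like values overlapped. The log2 fold change was −2.57 ± 0.21 (SE) in effector-like over memory-like cells, which is given without a test. Against naive-like cells, Myc fell by 2.43 ± 0.21 on the log2 scale (edgeR quasi-likelihood test, Benjamini-Hochberg adjusted p = 2.33e-06). The choice of genes had already used the low Myc of these effector-like libraries, so this p-value is no independent support. Memory-like over naive-like Myc differed by 0.14 ± 0.15 (edgeR adjusted p = 0.695), less than the spread between libraries.

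Under blockade, Myc stood at 86.4, 130 and 87.4 CPM in DN blockade libraries, against 170, 191 and 190 CPM in DN isotype libraries. The groups did not overlap, as for 10.2% of the genes tested in that direction, and the log2 fold change was −0.86 ± 0.16, again without a test. In DP cells it was at 99.2, 101 and 76 CPM under blockade and 84.4, 79 and 70.4 CPM under isotype, which overlapped, with a log2 fold change of 0.24 ± 0.16. The difference between the DN and DP effects was not tested. DP isotype over DN isotype Myc fell by 1.23 ± 0.16 on the log2 scale (edgeR adjusted p = 0.000122). Between DP blockade and DN blockade the log2 difference was −0.14 ± 0.16 (edgeR adjusted p = 0.563), and it turned to 0.085 without DN blockade replicate 2 and to 0.016 without DP blockade replicate 3. DN isotype was thus the high group of this experiment, and DN blockade and DP isotype were both compared with its libraries. The choice of genes had already used Myc under blockade and isotype, so the p-values between DP and DN cells are no independent support.

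Genes of plasmacytoid dendritic cells were highest in DN isotype libraries, as Myc was. The 6 markers summed to 1168 to 1712 CPM in DN blockade against 1819 to 2668 CPM in DN isotype libraries, with no marker at 0 in either group. In DP libraries they summed to 492.6 to 582.7 CPM under blockade and 401 to 404 CPM under isotype. Effector-like libraries had marker sums of 186 to 270 CPM. Sums ran from 503 to 1837 CPM over memory-like libraries and from 137 to 496 CPM over naive-like ones. Naive-like Myc was at 173 to 236 CPM, in a table scaled apart from that of the DN libraries. In the single cells, Siglech was at 0 in both libraries, while Bst2 was at 425 CPM under blockade and 191 CPM under isotype. Irf8 was at 106 and 41.2 CPM in the same order, and T cells can express Bst2 and Irf8. Ccr9 went the other way, at 10.5 and 23.9 CPM, while Tcf4 (12.6 and 10.2 CPM) and Cox6a2 (4.6 and 4.84 CPM) differed less. Single-cell cluster 12, described below, had 5 of the 6 markers higher than the other cells, with Myc at 9.5 CPM from 2 molecules. Naive-like T cell markers, 7 in the list, also moved with Myc among DN libraries, with sums of 1799 to 2282 CPM under blockade against 2945 to 3540 CPM under isotype. They summed to 496.4 to 870.7 CPM in DP blockade and 684.2 to 999.6 CPM in DP isotype libraries. NK or gamma-delta T cell markers, 4 measured, summed to 32.7 to 41.7 CPM in DP isotype against 231 to 326 CPM in DN isotype libraries. The part of these cells in the bulk Myc values was not tested.

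**Figure D1:**
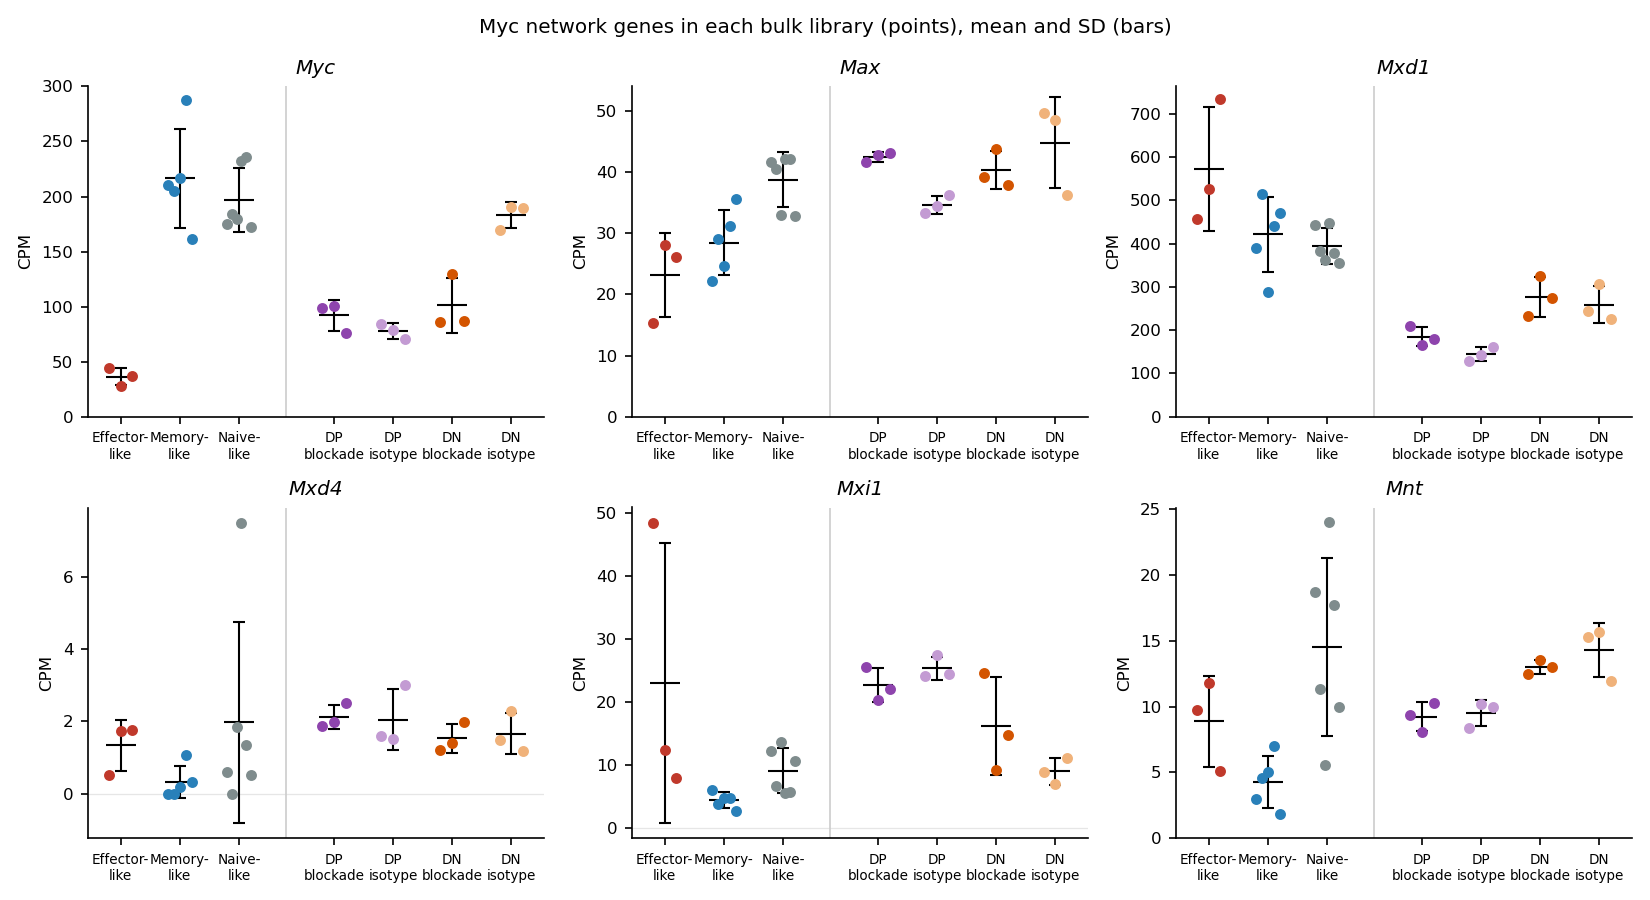
CPM of each of the 6 genes in each bulk library; points are libraries, bars give the mean and SD, and the grey line parts the subset from the treatment experiment, which were scaled separately. Effector-like Myc lies between 28.4 and 43.9 CPM, below all other subset libraries, and DN isotype Myc lies between 170 and 191 CPM, above all other treatment libraries.

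Max, the shared partner, varied less than Myc. It was at 15.3, 28 and 26.2 CPM in effector-like libraries and at 22.1, 29.1, 24.6, 31.1 and 35.5 CPM in memory-like libraries, which overlapped (log2 fold change −0.30 ± 0.24, no test). Naive-like Max ranged from 32.9 to 42.2 CPM. All effector-like libraries lay below the naive-like ones, as for 6.55% of genes, but the log2 difference of −0.74 ± 0.24 did not pass (edgeR adjusted p = 0.0849), and neither did memory-like over naive-like (−0.44 ± 0.20, edgeR adjusted p = 0.231).

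In the treatment experiment, Max was at 33.3, 34.5 and 36.2 CPM in DP isotype and 49.6, 48.5 and 36.2 CPM in DN isotype libraries. It fell by 0.37 ± 0.13 on the log2 scale (edgeR adjusted p = 0.0449). This call was lost in 9 of 13 alternatives, over which the adjusted p ran from 0.00515 to 0.197. DP blockade libraries had 41.6, 42.8 and 43.1 CPM, above all DP isotype libraries, as for 8.20% of genes (0.29 ± 0.13, no test), and DN blockade libraries had 39.2, 43.8 and 37.9 CPM (−0.15 ± 0.13 over DN isotype, no test). Between DP and DN under blockade the log2 difference was 0.08 ± 0.13 (edgeR adjusted p = 0.686).

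Mxd1, a Max partner that recruits corepressors, had the highest normalized signal of the repressor members in all 7 groups. Effector-like libraries had 457, 527 and 733 CPM, against 391, 514, 288, 441 and 471 CPM in memory-like libraries (log2 fold change 0.44 ± 0.18, no test). Naive-like libraries ranged from 355 to 448 CPM with a median of 380 CPM. All effector-like libraries were above the naive-like ones, as for 6.32% of genes, with a log2 difference of 0.54 ± 0.17 that did not pass (edgeR adjusted p = 0.0798). With library totals alone the difference was 0.73 and passed (adjusted p = 0.00576), a scaling that moved the median of all genes in this comparison to 0.247, and DESeq2 also called it (adjusted p = 0.0282). Over all 16 alternatives the adjusted p ran from 0.00576 to 0.387. Memory-like over naive-like Mxd1 was 0.09 ± 0.15 (edgeR adjusted p = 0.798).

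Mxd1 was lower in DP than in DN cells under blockade and under isotype. DP isotype libraries had 129, 144 and 161 CPM and DN isotype libraries 245, 306 and 227 CPM, a log2 fall of 0.84 ± 0.15 (edgeR adjusted p = 0.00106). DP blockade libraries had 209, 167 and 180 CPM and DN blockade libraries 232, 325 and 273 CPM, so that Mxd1 fell by 0.58 ± 0.15 (edgeR adjusted p = 0.0123). The second call was lost without DN blockade replicate 2 (adjusted p = 0.0555) and without DP blockade replicate 2 (adjusted p = 0.0589), within a range of 0.00183 to 0.0589 over 13 alternatives. Blockade over isotype gave 0.36 ± 0.15 in DP cells, where the groups did not overlap (as for 8.20% of genes in that direction), and 0.09 ± 0.15 in DN cells, where they did; neither was tested.

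Relative to each other, Myc and Mxd1 changed order. The scale of the authors' normalized signal is not named; across genes, the reads behind 1 unit of it grew with exonic length in every bulk library (Spearman 0.735 to 0.746 over 7176 to 9390 genes). On this signal, Mxd1 was the highest of the 6 members in all 3 effector-like and all 3 DN blockade libraries, and Myc in all 3 DN isotype libraries. The other groups were mixed. The log2 ratio of Myc to Mxd1 counts within a library was −3.97 ± 0.51 in effector-like, −0.96 ± 0.47 in memory-like and −1.01 ± 0.21 in naive-like libraries (SD). It was −1.46 ± 0.16 in DN blockade against −0.49 ± 0.22 in DN isotype libraries, and −1.01 ± 0.26 in DP blockade against −0.89 ± 0.29 in DP isotype libraries. These ratios restate the levels above and were not tested.

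**Figure D2:**
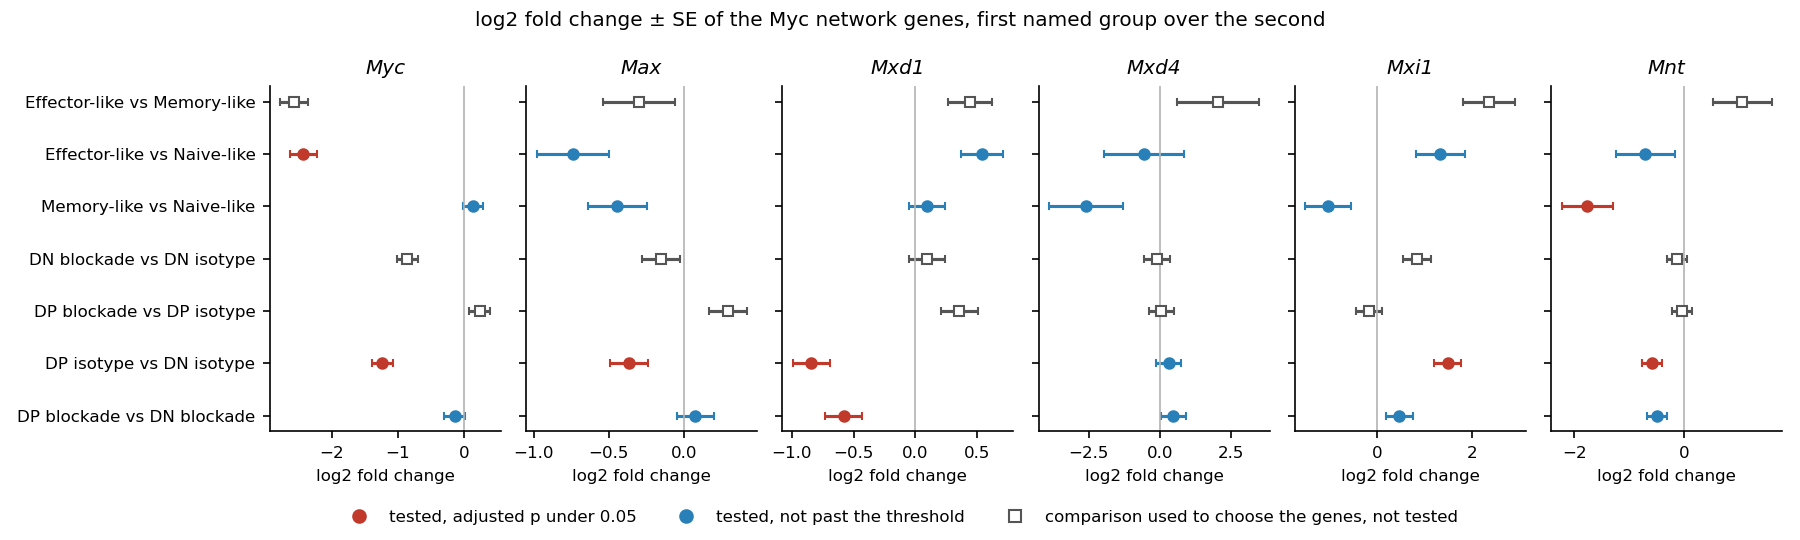
The log2 fold change with its SE of each member in the 7 bulk comparisons, first named group over the second; red points passed an adjusted p of 0.05, blue points did not, and open squares mark comparisons that were used to choose the genes and were not tested. Myc is lower in effector-like over naive-like cells (−2.43) and in DP over DN isotype cells (−1.23). Both reuse libraries whose Myc levels entered the choice of genes.

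Mxi1, also a Sin3-recruiting Max partner, was spread widely within groups. Effector-like libraries had 48.5, 12.4 and 8 CPM, against 6.1, 3.86, 4.85, 4.83 and 2.75 CPM in memory-like libraries. The groups did not overlap, as for 4.75% of genes in that direction, but the log2 fold change of 2.36 ± 0.55 was 1.19 without replicate 1 (no test). Naive-like libraries ranged from 5.55 to 13.7 CPM, and neither effector-like (1.34 ± 0.52, edgeR adjusted p = 0.164) nor memory-like cells (−1.02 ± 0.48, edgeR adjusted p = 0.249) differed from them past the threshold. DP isotype libraries had 24.1, 27.5 and 24.4 CPM and DN isotype libraries 8.96, 6.95 and 11.1 CPM. Mxi1 rose by 1.49 ± 0.29 in DP over DN isotype cells (edgeR adjusted p = 0.00206) and kept that call in all 13 alternatives. Under blockade, DP libraries had 25.6, 20.4 and 22.1 CPM and DN libraries 24.6, 9.24 and 14.8 CPM, with a log2 difference of 0.48 ± 0.28 (edgeR adjusted p = 0.231). Without DN blockade replicate 1 it was 0.91 and passed (adjusted p = 0.021, over alternatives 0.021 to 0.581). Blockade over isotype gave 0.85 ± 0.29 in DN and −0.16 ± 0.28 in DP cells, untested.

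Genes of tumour cells or stroma moved with Mxi1 inside the DN and effector-like groups. The 9 markers, which include keratins and collagens, summed to 1591, 394 and 1016 CPM in DN blockade replicates 1 to 3, where Mxi1 was 24.6, 9.24 and 14.8 CPM. In DN isotype replicates 1 to 3 they summed to 601, 115.5 and 712 CPM, where Mxi1 was 8.96, 6.95 and 11.1 CPM. In effector-like replicates 1 to 3 the sums were 848, 669 and 14.6 CPM, beside Mxi1 at 48.5, 12.4 and 8 CPM. DP libraries had sums of 324 to 576 CPM under blockade and 377 to 650 CPM under isotype, which lay within the range of the DN libraries while Mxi1 was at 20.4 to 27.5 CPM. Naive-like replicate 6 had a sum of 545 CPM and Mxi1 at 10.7 CPM. The part of these cells in the Mxi1 values was not tested in bulk.

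**Figure D3:**
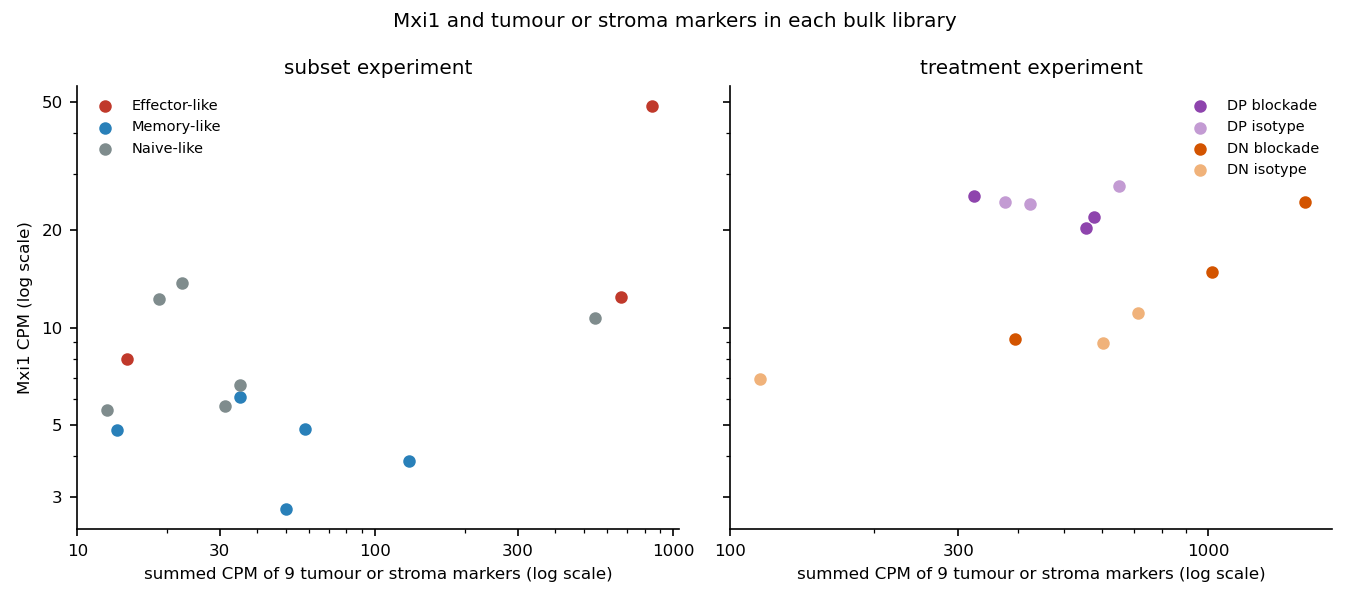
Mxi1 CPM against the summed CPM of 9 tumour or stroma markers in each bulk library, both on log scales, for the subset (left) and treatment (right) experiments. Effector-like replicate 1 combines a sum of 848 CPM with Mxi1 at 48.5 CPM, and DP libraries lie at 20.4 to 27.5 CPM at intermediate sums.

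Mnt, the broadly expressed repressor of the network, was at 9.7, 11.8 and 5.08 CPM in effector-like and 2.96, 4.6, 5.01, 6.98 and 1.83 CPM in memory-like libraries (1.05 ± 0.53, no test). Naive-like libraries ran from 5.56 to 24 CPM with a median of 14.5 CPM. Memory-like over naive-like Mnt fell by 1.76 ± 0.47 on the log2 scale (edgeR adjusted p = 0.0405). The groups overlapped, and the call was lost in 14 of 19 alternatives (adjusted p 0.00261 to 0.174), among them the removal of any single memory-like library other than replicate 4. Effector-like over naive-like Mnt was −0.71 ± 0.54 (edgeR adjusted p = 0.545). In the treatment experiment, DP isotype libraries had 8.38, 10.2 and 9.96 CPM and DN isotype libraries 15.3, 15.6 and 11.9 CPM, a fall of 0.59 ± 0.18 (edgeR adjusted p = 0.0269) that was lost in 7 of 13 alternatives. DP blockade had 9.32, 8.1 and 10.3 CPM and DN blockade 12.4, 13.5 and 13 CPM (−0.49 ± 0.18, edgeR adjusted p = 0.0606). Blockade over isotype differed by −0.04 ± 0.18 in DP and −0.14 ± 0.18 in DN cells, untested.

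Mxd4, a further Sin3-binding Max partner, was near the lower end of detection in bulk. Effector-like libraries held 4 to 11 of its reads. The count was 0 to 6 over memory-like libraries, 2 of them at 0, and 0 to 46 over naive-like libraries, 1 at 0. None of its tested log2 differences passed: −0.55 ± 1.41 in effector-like over naive-like cells (edgeR adjusted p = 0.89), −2.59 in memory-like over naive-like cells (0.286), 0.31 ± 0.44 in DP over DN isotype cells (0.649) and 0.47 ± 0.44 in DP over DN blockade cells (0.466). Reads at this depth do not show whether it differs. In single cells, by contrast with its bulk rank, Mxd4 was at 37.7 CPM (95% interval 34.3 to 41.2) under blockade and 46.9 CPM (43.2 to 50.9) under isotype, in libraries that count molecules near the 3′ end.

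Read over comparisons, 5 of the 6 members passed in DP over DN isotype cells, where 29.9% of the 12710 genes tested did. Mxd1 alone fell in DP over DN blockade cells (background 12.5% lower), 1 member passed in effector-like over naive-like cells (6.42% of 12388 genes) and 1 in memory-like over naive-like cells (5.51%). The Myc calls among these reuse libraries whose Myc levels entered the choice of genes.

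Of the wider network (7 genes: Mycn, Mycl, Mxd3, Mga, Mlx, Mlxip and Mlxipl), 5 were tested in each table. None passed in any comparison of the subset experiment or in blockade over isotype by edgeR. At an unadjusted p under 0.05 there was 1 in effector-like over memory-like, 1 in effector-like over naive-like, 3 in memory-like over naive-like and 0 in both blockade over isotype comparisons. The share over all genes at that threshold is not given here, so these counts are not read as a result. In DP over DN isotype cells, where 29.9% of all genes passed, 1 rose and 3 fell. Mxd3, an S-phase member of the Mxd family, had 14.8 ± 2.15 CPM in DP isotype and 2.70 ± 0.71 CPM in DN isotype libraries (SD, n = 3 each), a log2 rise of 2.46 ± 0.34 (edgeR adjusted p = 0.000175). Cycling markers, 7 in the list, summed to 1472 to 1548 CPM in DP against 296 to 598 CPM in DN libraries, and their part in the Mxd3 result was not tested. Mycl, a Myc relative best known in dendritic cells, had 0.523 ± 0.467 CPM in DP isotype and 8.85 ± 1.59 CPM in DN isotype libraries (edgeR adjusted p = 0.00298), and fell in DP over DN blockade cells too (adjusted p = 0.00173), along with the plasmacytoid dendritic cell markers above. Mlxip, the glucose-sensing MondoA, fell by 0.66 ± 0.15 (edgeR adjusted p = 0.00445), and Mga, a large Max partner, by 0.46 ± 0.15 (adjusted p = 0.0388), in DP over DN isotype cells.

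Among 14 genes of Myc protein turnover, 13 were measured. Usp28, a deubiquitinase known to stabilise Myc in human cells, was the member with the smallest p in all 4 tested comparisons. It had 11.1 ± 4.98 CPM in effector-like and 75.8 ± 41.9 CPM in naive-like libraries (edgeR adjusted p = 0.000944), and 22.9 ± 6.43 CPM in memory-like libraries (adjusted p = 0.00873 over naive-like). It had 12.9 ± 1.66 CPM in DP isotype and 64.6 ± 10.8 CPM in DN isotype libraries, a fall of 2.32 ± 0.30 (adjusted p = 0.000104), and 10.2 ± 4.99 CPM in DP blockade against 27.1 ± 7.78 CPM in DN blockade libraries (adjusted p = 0.00418). Fbxw7, the ubiquitin ligase subunit that marks phosphorylated Myc for destruction, fell as well in DP over DN isotype cells, by 1.01 ± 0.24 (adjusted p = 0.00689). In total 2 turnover genes rose and 4 fell there (29.9% of all genes passed), and 1 rose (background 14.4%) and 5 fell (12.5%) in DP over DN blockade cells. Among 18 cofactors, 2 rose and 2 fell in DP over DN isotype cells, a smaller share than the 29.9% of all genes. Hdac1, a deacetylase of Sin3 complexes, rose by 0.72 ± 0.08 (edgeR adjusted p = 3.2e-05) and Hcfc1, a Myc-binding coactivator, by 0.46 ± 0.10 (adjusted p = 0.00297).

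A list of 90 Myc target genes of ribosome production, nucleotide synthesis, amino acid use, glycolysis and translation was measured in full. In effector-like over memory-like cells none passed (1.91% of all genes did); the median log2 fold change was −0.14, against 0.01 over all genes tested, and 14 targets had an unadjusted p under 0.05. No target passed under blockade in DN cells (background 1.12%) or in DP cells (0.0629%), and 12 and 3 had an unadjusted p under 0.05. Counts at an unadjusted p are given without the share over all genes, so they are not read as a result about the targets. The 142 genes called over all genes in DN cells were 59 with the title number as a block, although the labels do not give these numbers as pairs. The median over targets was 0.01 in DN and 0.02 in DP cells, against −0.01 over all genes in both. DESeq2 called 3 targets lower in effector-like over memory-like cells, 2 lower in DN blockade over isotype cells and none in DP cells. Over all genes and in either direction, DESeq2 called 539, 521 and 55 in the same comparisons. The share over all genes in the same direction is not given here, so the DESeq2 target counts are not read as a result. In effector-like over naive-like cells 1 target rose (2.62% of all genes did) and 5 fell (3.79%), with a median of −0.16 against 0.04 over all genes. With library totals alone 5 rose and 2 fell, with a median of 0.05 beside 0.247 over all genes. The split into targets that rose and fell thus rests on the scaling, while their median lay below that of all genes with either scaling. Without naive-like replicate 6, 8 rose. Npm1, a nucleolar ribosome assembly factor, had 844 ± 265 CPM in effector-like and 1510 ± 149 CPM in naive-like libraries (edgeR adjusted p = 0.00379), and Odc1, which starts polyamine synthesis, had 62.7 ± 15.2 and 124 ± 30.9 CPM in the same groups (adjusted p = 0.0138). Eno1, a glycolytic enzyme, rose by 0.96 ± 0.19 (adjusted p = 0.00622). In memory-like over naive-like cells Ppat, Phgdh and Ldha rose (2.78% of all genes did) and none fell, with 20 of 90 targets at an unadjusted p under 0.05. Over 19 alternatives 0 to 7 rose. Calls over all genes moved too, from 340 to 815 in this comparison when 1 library was left out. Target counts under alternatives are therefore not read as a result about the targets.

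In DP over DN isotype cells 14 of 90 targets rose and 5 fell, where 1909 of all 12710 genes rose and 1885 fell (29.9% in all), and the median was 0.05 against 0.00 over all genes. Under blockade 16 rose (background 14.4%) and 1 fell (12.5%), with a median of 0.10 against −0.04. The targets that rose were thus near the background share in both comparisons, and fewer fell than the background share. Over 13 alternatives 8 to 21 rose and 0 to 7 fell under isotype (8 rose without DP isotype replicate 2, 9 without DN isotype replicate 2), and 7 to 20 rose under blockade (7 without DP blockade replicate 2, 9 without DN blockade replicate 2, 10 with library totals alone). Calls over all genes also moved when 1 library was left out, from 2880 to 4041 under isotype and from 2386 to 3143 under blockade. These target counts under alternatives are likewise not read as a result. Ldha, which makes lactate, had 2340 ± 232 CPM in DP isotype and 1200 ± 276 CPM in DN isotype libraries (edgeR adjusted p = 0.000414), and Eno1, Pkm and Hk2, further glycolytic enzymes, rose by 1.11, 0.95 and 1.40 on the log2 scale. Ppat, of purine synthesis, rose by 0.83 ± 0.12 (adjusted p = 0.000303) and E2f2, a cell cycle transcription factor, by 1.28 ± 0.16 (adjusted p = 0.000105). Hk2 was named after its value was seen, as were those that fell: Fbl, Rrp12, Las1l and Gnl3, which act in ribosome production, and Ccnd2, a G1 cyclin. CACGTG was present in 21 of the 77 target promoters that matched (27.3%), among them those of Ldha, Nme1, Impdh2 and Apex1.

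**Figure D4:**
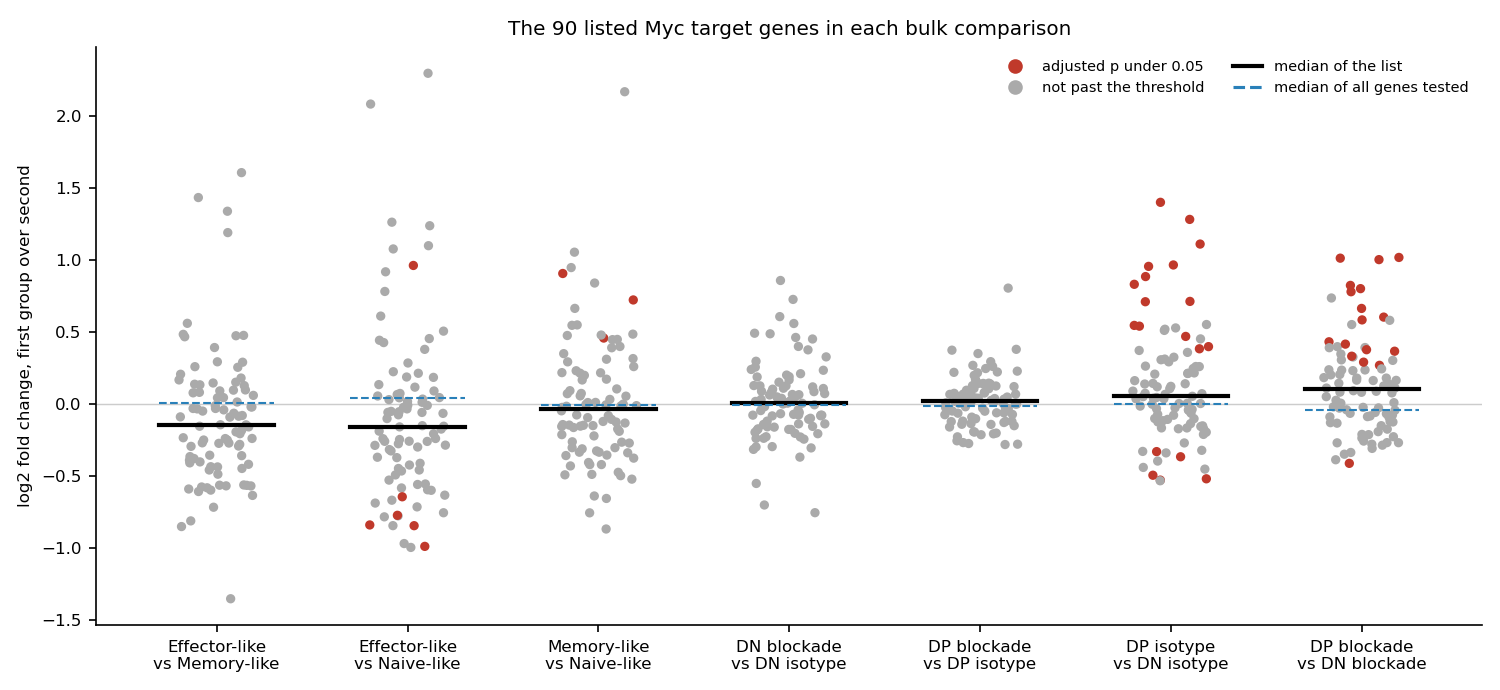
The log2 fold change of each of the 90 listed Myc targets (points, red where the adjusted p was under 0.05) in the 7 bulk comparisons, with the median of the list (black) and of all genes tested (dashed). No target passed in effector-like over memory-like cells or under blockade, while 14 rose and 5 fell in DP over DN isotype cells.

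The genes most like each member across libraries were taken by the lower of the Pearson correlations over the 14 subset and 12 treatment libraries, among 11899 genes. Libraries of a group share their sort and treatment, so these are descriptions. For Myc they were Rps20, Rps9, Rpl10a, Myb, Rpl23a and Rps7, with lower correlations of 0.906 to 0.887, and none of these was among the first 6 by Spearman correlation. Of these, 5 encode ribosomal proteins, and Myb is a transcription factor of haematopoietic progenitors. Mxd1 was closest to Zdhhc18 (0.843) and Inpp5d (0.797), Mnt to 2410004B18Rik (0.812) and Rictor (0.807), Mxi1 to Cdh17 (0.764) and Calu (0.755), Max to Vps39 (0.754) and Map2k7 (0.749), and Mxd4 to Mlx (0.727) and Imp4 (0.716). By Spearman correlation, the genes named for Mxi1 ranked 82.5 and 43.5, those for Max 8.5 and 33, and Inpp5d 4, so none of these stayed among the first 2.

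In the DN single cells, 2502 blockade and 2950 isotype cells were kept, with 12399243 and 12390885 molecules (UMIs), and 7 cell barcodes occurred in both libraries. Barcode suffixes 1 and 2 were read as the labels' S1 (isotype) and S2 (blockade), and the sign of every single-cell ratio rests on that reading. With 1 library a group there is no test, and intervals cover counting error only. Summed over cells, Myc was at 48.6 CPM (44.7 to 52.6) under blockade and 68.2 CPM (63.7 to 73.0) under isotype, a log2 ratio of −0.49. Mxd1 was at 73.2 CPM (68.5 to 78.2) under blockade and 28.4 CPM (25.5 to 31.5) under isotype, a ratio of 1.37 that stands beside 0.09 ± 0.15 in bulk DN cells. Of the 6 members, Mxd1 and Mxi1 lay more than 0.5 above 0, as did 16.8% of the 8198 genes with 50 or more UMIs in each library, and none lay more than 0.5 below 0 (4.14%); the median gene was at 0.15. Max was at 90.2 CPM under blockade and 84.2 CPM under isotype, and Mnt at 7.66 and 8.15 CPM in the same libraries.

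Across 14 clusters, the order of Myc point values differed between the libraries, in part within counting error. Cluster 7, led by Gzmm and Itm2a, had 95.3 CPM under blockade and 94.2 CPM under isotype, cluster 4 (Cxcl10, Usp18) had 81.1 and 105 CPM in the same order, and cluster 9 (Izumo1r, Itgae) had 123 CPM from 12 UMIs under blockade and 67.2 CPM under isotype. Cluster 2 (Ramp3) was low in both libraries, at 32.2 CPM under blockade and 26.6 CPM under isotype. Cluster 8 (Cxcr6, Ifitm1) had 21.2 CPM (95% interval 15.6 to 28.1) under blockade but 57.8 CPM (34.3 to 91.4, from 18 UMIs) under isotype. Its isotype interval overlapped those of clusters 0 (24.1 to 86.5), 1 (22.7 to 46.9) and 2 (9.75 to 57.9) of that library. With both libraries summed, the effector-like cluster 1 had 41.4 CPM and the naive-like cluster 3 had 72.9 CPM, and the cycling cluster 10 had 54.6 CPM. Mxd1 was at 73.4 CPM in effector-like cluster 1, 18.4 CPM in naive-like cluster 3 and 111 CPM in the interferon-responding cluster 0. It was at 117 CPM in cluster 2, 92.5 CPM in cluster 4 and 75.7 CPM in cluster 6 (Klra7). Mxd4 reached 160 CPM in cluster 9, above the 24.4 to 55.1 CPM of the other T cell clusters. Libraries filled the clusters unequally, with 20.7% of blockade and 2.88% of isotype cells in cluster 8 and 22 of 2502 blockade and 767 of 2950 isotype cells in cluster 3.

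Within clusters the picture differed between members. In the 10 T cell clusters with 20 or more cells of each library, Mxd1 was higher under blockade in all 10, but the 95% intervals were separate in 2 of them, clusters 4 and 6, and clusters 3 and 9 rest on 2 and 3 blockade UMIs. It was at 111 CPM under blockade and 110 CPM under isotype in cluster 0, and at 109 and 55.6 CPM in cluster 4. Myc was higher under blockade in 5 and lower in 5, with separate intervals in clusters 8 and 10, both lower; in cluster 8 it was at 21.2 CPM under blockade and 57.8 CPM under isotype, and in cluster 6 at 92.9 and 71.8 CPM in the same order. A cluster mostly of 1 library may reflect that library.

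Core T cell markers summed to 158, 812 and 555 CPM in 3 clusters, against 5400 CPM over all cells: the tumour or stroma-like cluster 11 (59 cells, median 28858 UMIs), cluster 12 with the dendritic genes Flt3 and Cd209a (35 cells) and the myeloid-like cluster 13 (44 cells). They made up 16.7% of blockade and 8.26% of isotype UMIs. Mxi1 was at 112 CPM in cluster 11 and 47.1 CPM in cluster 13, against 2.76 to 26.6 CPM in T cell clusters. These 3 clusters low in core T cell markers held 295 of all 501 Mxi1 UMIs (58.9%) but 1.94% of Myc UMIs. Without them, an alternative chosen after the data were seen, Mxi1 was at 12.1 CPM under blockade and 7.13 CPM under isotype, a log2 ratio of 0.76 beside 0.61 with them. Mxd1 reached 203 CPM in myeloid-like cluster 13, and without the 3 clusters its log2 ratio was 1.32. Myc was then at 55.9 CPM under blockade and 74.1 CPM under isotype, a ratio of −0.41.

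**Figure D5:**
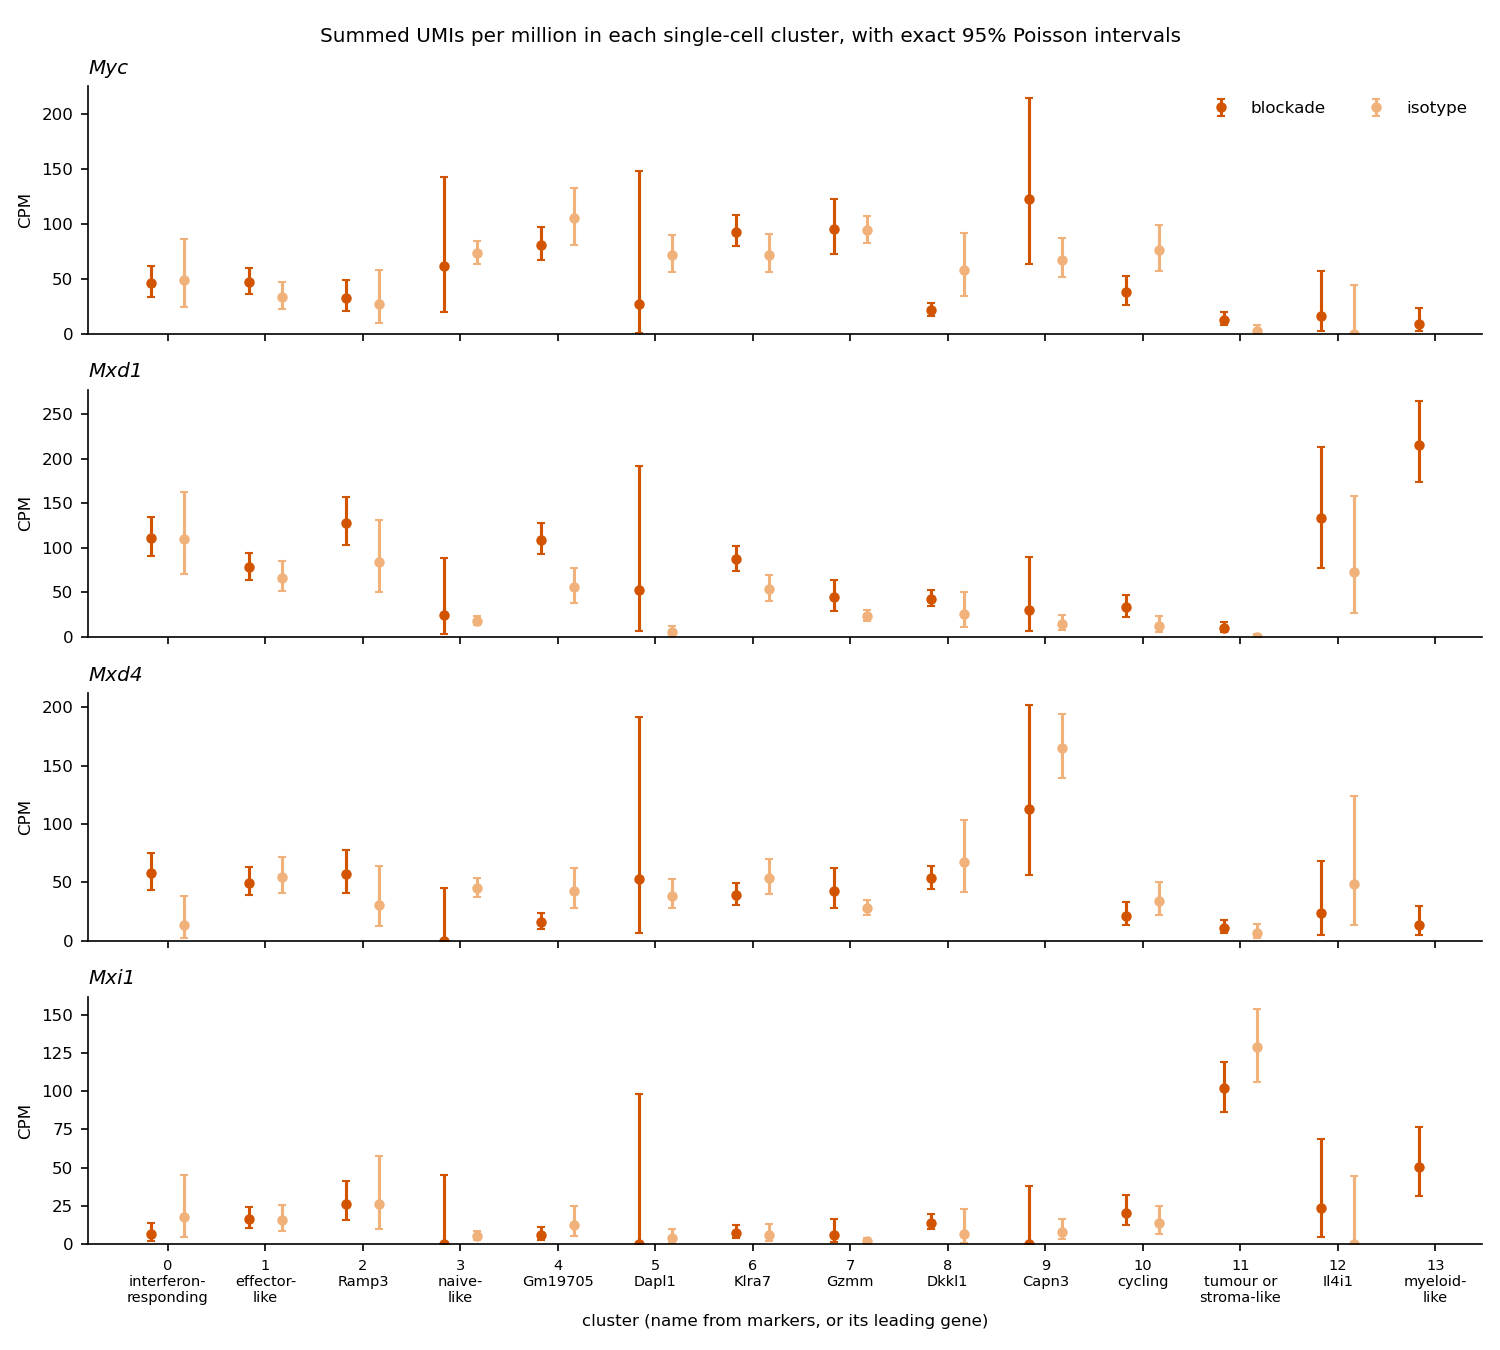
CPM of Myc, Mxd1, Mxd4 and Mxi1 in each single-cell cluster under blockade (dark) and isotype (light), with exact 95% Poisson intervals; libraries with under 10 cells in a cluster are not drawn. In T cell clusters the Mxd1 intervals of the libraries are separate in clusters 4 and 6, and Mxi1 is highest in the tumour or stroma-like cluster 11.

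Of the 90 Myc targets, 88 had 50 or more UMIs in each library, with 24 above and 64 below a log2 ratio of 0 and a median of −0.20, against 0.15 over all genes. Past 0.5, 8 were higher (16.8% of all genes were) and 14 lower (4.14%). These ratios sum all kept cells, among them the clusters low in core T cell markers, with 16.7% of blockade and 8.26% of isotype UMIs. The targets were not redone without those clusters. The 6 genes of glucose uptake, glycolysis and lactate export in the list, which were grouped after their values were seen, were all above 0: Slc2a1 at 1.10, Pkm at 0.79, Ldha at 0.69, Eno1 at 0.53 and Slc16a1 at 0.30, with Hk2 between the first and the next. The same 6 had bulk DN log2 fold changes of 0.26 to 0.86 under blockade, and none passed (edgeR adjusted p from 0.262 to 0.547).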

How the data were processed

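Bulk libraries were made from about 2000 sorted cells with an adapted SMART-Seq2 protocol, per the labels' protocols, and the submitters' processing notes name TopHat, RSEM, DESeq and mm9. The authors deposited expected counts per gene, and a normalized signal per gene, on a scale the sources used here do not name, used here only to order genes within a library. The authors deposited UMI counts for the single cells, for which the notes name Cell Ranger 1.3 and mm10. Other steps and versions are not given in the sources used here.

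Expected counts were rounded, 4 rows of repeated names were left out, and genes were filtered with filterByExpr, scaled by TMM and tested with edgeR 4.0.16 (R 4.3.3) by quasi-likelihood over all libraries of a table, with Benjamini-Hochberg adjustment over 12388 and 12710 genes and a threshold of 0.05. SE is the log2 fold change divided by the root of the F statistic. Alternatives were other scalings, no filter, DESeq2 1.42.0, replicate blocks and leaving out libraries. DN libraries with the same title number correlated at 0.109 to 0.353 over 3 pairs. However, DN blockade replicate 1 correlated better with DN isotype replicate 3 (0.186) than with its own number (0.109). The labels give no reason for a pairing, and DN blockade and DN isotype share no number in the library names. A block by title number is therefore only an alternative setting.

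Cells with under 500 genes or over 10% mitochondrial UMIs were left out, 5452 of 5471 were kept, and no doublets were removed. They were clustered with scanpy 1.11.5 on 2000 variable genes other than the members and targets, and clusters were named from marker lists, so names were rebuilt here. Single-cell CPM are summed UMIs scaled to library size with exact Poisson intervals. The members and lists were chosen with earlier results of these data known. The genes named are the members, the wider network, the called genes of the other lists with the smallest p and the genes most alike.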

Additional observations from a re-analysis of the deposited data

Results flagged for a closer look

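Mxd4 stood apart in 1 library each of 2 groups, by the gap to the nearest library relative to the group's range. It was at 7.51 CPM in naive-like replicate 4, where the next library was at 1.85 CPM, and at 1.07 CPM in memory-like replicate 4, where the next was at 0.305 CPM. The memory-like value rests on 6 reads. Chance flags about 1 in 20 groups. No explanation was tested.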

How the results depend on the processing

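Over 42 member results and 597 alternatives, 552 values kept their direction and their side of the threshold or moved by less than the replicate spread, and 29 results did so throughout. Reversed values were those of Mxd4 in effector-like over naive-like cells (1.439 with the title number as a block, 0.63 without naive-like replicate 4 and 0.494 without memory-like 2 and naive-like 4 and 6), Mxd4 in DP over DN isotype cells (−0.094 without DP isotype replicate 3) and Myc in DP over DN blockade cells (0.085 without DN blockade replicate 2 and 0.016 without DP blockade replicate 3). Leaving out 1 library gave −0.814 to 0.63, −0.094 to 0.611 and −0.24 to 0.085 for these 3 results in turn. Counts over all genes moved more. DESeq2 called 539 genes in effector-like over memory-like, 1284 in effector-like over naive-like, 1318 in memory-like over naive-like, 521 in DN blockade over isotype and 55 in DP blockade over isotype cells, against 237, 795, 683, 142 and 8 with edgeR. With no filter the blockade counts were 224 in DN and 17 in DP cells, and with only the groups compared 2 and 16. With the title number as a replicate block they were 59 in DN, 4 in DP and 123 in effector-like over memory-like cells, and with the number in the library name as the block 186 in memory-like over naive-like cells. Between DP and DN, libraries with the same number in their names correlated at −0.014 to 0.302 under isotype, against −0.312 to 0.092 for other pairs. Under blockade they correlated at 0.058 to 0.146, against −0.12 to 0.049, and each library correlated best with its own number. The labels do not say whether a shared number marks the same animal, and the main DP over DN p-values take no account of such a pairing. That number as a replicate block gave 3517 genes under isotype, against 3794 without it, and 3227 against 3426 under blockade, with adjusted p of 0.116 for Max and 0.102 for Mnt under isotype. Without memory-like 2 and naive-like 4 and 6, 1319 genes passed in effector-like over naive-like cells. Leaving out 1 library gave 105 to 215, 484 to 1068 and 340 to 815 genes for the 3 subset comparisons in the order above, 22 to 229 for DN and 3 to 9 for DP blockade. Counts moved by over 1.5 times without effector-like 1 or 2, memory-like 1 or 3, any of DN isotype 1 to 3, DN blockade 1 or 3, DP isotype 1 or 3, and DP blockade 1 or 2. The cause was not tested. Library totals alone moved the median of all genes to 0.247 in effector-like over naive-like and to 0.116 in memory-like over naive-like cells. The single-cell Myc ratio was −0.49, and −0.42 to −0.41 under 2 alternatives. Depth limits Mxd4 in bulk and Mnt in single cells, with 95 and 101 UMIs a library.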
